A study of Arabidopsis thaliana with 30 samples.

Results

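Cellulose of the primary wall, the wall of growing plant cells, is made at the plasma membrane, and 8 Arabidopsis genes of this machinery are described here. They are CESA1 (AT4G32410), CESA3 (AT5G05170), CESA6 (AT5G64740), CESA2 (AT4G39350), CESA5 (AT5G09870), CESA9 (AT2G21770), COB (AT5G60920) and KOR1 (AT5G49720). They were picked by locus for what the genes are known to do, by a rule that uses no measured value. Earlier results of these data were known when they were picked. They make up 8 of the 27827 genes of the array table. Total mRNA and polysomal mRNA, the mRNA recovered with several ribosomes bound, were measured on 30 Affymetrix Arabidopsis Gene 1.1 ST arrays. The seeds were after-ripened seeds of the wild type Columbia (Col-0), germinated on wet paper under continuous light, and no mutant, transgene or chemical was used. Polysomal and total mRNA were each sampled in 3 biological replicates of dry seeds and of seeds at 6, 26, 48 and 72 hours after the start of imbibition (HAI), which gave 10 groups of 3 arrays. By the study's description the later stages are early imbibition (6 HAI), the start of testa rupture (26 HAI), radicle protrusion in most seeds (48 HAI) and green seedlings (72 HAI). A group is whole seeds or seedlings, so embryo, endosperm and seed coat are pooled in it.

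CESA proteins are the catalytic subunits of the cellulose synthase complex, a membrane rosette that spins glucan chains into microfibrils as it moves along cortical microtubules. In primary walls a complex holds CESA1, CESA3 and a CESA6-type subunit, and the last position can be filled by CESA6 or by its relatives CESA2, CESA5 and CESA9. CESA2, CESA5 and CESA9 are also known for the cellulose of the seed coat epidermis. KOR1 (KORRIGAN1) is a membrane-bound endo-beta-glucanase that associates with the complex, and COB (COBRA) is a GPI-anchored wall protein needed for oriented microfibrils in elongating cells. In a germinating seed these proteins serve the walls of the elongating hypocotyl and root, while the seed coat is already dead at maturity.

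Signals are RMA values on the log2 scale, and 4 was taken as the noise level. Array medians lay between 3.53 and 4.15, no array repeated another, and since RMA makes the arrays alike in distribution, every change is relative to the other genes. A gene was tested if all 3 replicates of some group were above 4, which held for 17061 genes and for all 8 genes described here. CESA1, CESA2, CESA3, CESA6, COB and KOR1 were above 4 in all 10 groups. CESA5 was above 4 in 5 groups (18 of 30 arrays). CESA9 was above 4 in 1 group, polysomal mRNA of dry seeds, and on 4 arrays in all, so it was tested only because of the group in which it was high. Its differences from dry seeds, in either fraction, are therefore given as values with no p. For comparisons with dry seeds, the main counts that include it are also given over the other 7 genes. Array signals do not compare between genes, and probe overlap between CESA genes was not checked here. A gene passed a test at a Benjamini-Hochberg adjusted p below 0.05 over all genes tested (limma) and a log2 difference above 1 in size. The mature seed markers (5 genes) averaged 11.68 to 11.76 in dry seeds (total mRNA), and the green seedling markers (5 genes) averaged 11.02 to 11.11 in total mRNA at 72 HAI. Replicate 2 of total mRNA from dry seeds stood apart, with a green seedling marker mean of 5.46 against 4.23 and 3.56 in replicates 1 and 3. Replicate 3 of polysomal mRNA at 72 HAI also stood apart, with a mature seed marker mean of 7.25 against 4.37 and 4.21 in replicates 1 and 2. In such bulk samples fewer cells of a type and less RNA per cell cannot be told apart.

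The courses of the 8 genes fell into few shapes. In polysomal mRNA the lowest group of CESA1, CESA3, CESA6, COB and KOR1 was 6 HAI, not the dry seed, and their highest group was 48 or 72 HAI. Polysomal CESA1 averaged 6.07 ± 0.09 in dry seeds and 5.06 ± 0.22 at 6 HAI, then 5.98 ± 0.24 at 26 HAI, 7.14 ± 0.08 after 48 h and 7.32 ± 0.19 after 72 h (SD, n = 3). Of neighbours in the order of its levels, 26 HAI and dry seeds overlapped, and so did 48 and 72 HAI. The polysomal course of CESA3 held the same order with no overlap between any neighbours, with 7.33 ± 0.08 in dry seeds and 6.50 ± 0.08 at 6 HAI, then 6.78 ± 0.10 at 26 HAI, 7.96 ± 0.29 after 48 h and 8.37 ± 0.09 after 72 h. In total mRNA, by contrast, the 6 HAI value of CESA3 (6.97 ± 0.29) overlapped that of dry seeds (7.0 ± 0.08). The polysomal levels of CESA6 and KOR1 followed that order too. Polysomal CESA6 was highest at 72 HAI, with 8.46, 8.84 and 8.54, where its arrays overlapped those at 48 HAI, as the arrays at 26 HAI did those at 6 HAI. Polysomal KOR1 was highest at 72 HAI as well, with 7.97, 8.15 and 7.54, and overlapped only between 48 and 72 HAI. Its total mRNA was 6.02 ± 0.23 in dry seeds and then 6.75 ± 0.24, 7.18 ± 0.12, 8.25 ± 0.27 and 8.49 ± 0.03 at the 4 later stages, with overlap again only between the last 2. Polysomal COB differed in that its highest group was 48 HAI (7.69 ± 0.30), and its dry seeds (6.94 to 7.21) overlapped 72 HAI (7.02 to 7.40). CESA2 had its highest polysomal level in dry seeds, at 7.09 ± 0.10, above 6.63 ± 0.29 at 72 HAI with no overlap. CESA5 had its lowest level in dry seeds in both fractions, and in total mRNA its 5 groups stood in the order of time, with 2.95 ± 0.46 in dry seeds and 3.79 ± 0.34 at 6 HAI, then 4.64 ± 0.11 at 26 HAI, 6.10 ± 0.21 after 48 h and 6.51 ± 0.19 after 72 h. No neighbours in that order overlapped except 48 and 72 HAI, which met at 6.32. CESA9 was the only one of the 8 whose level in dry seeds was above that of all later groups in both fractions, although in total mRNA its dry seed range (3.51 to 4.05) overlapped that at 48 HAI (2.84 to 3.86).

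**Figure D1:**
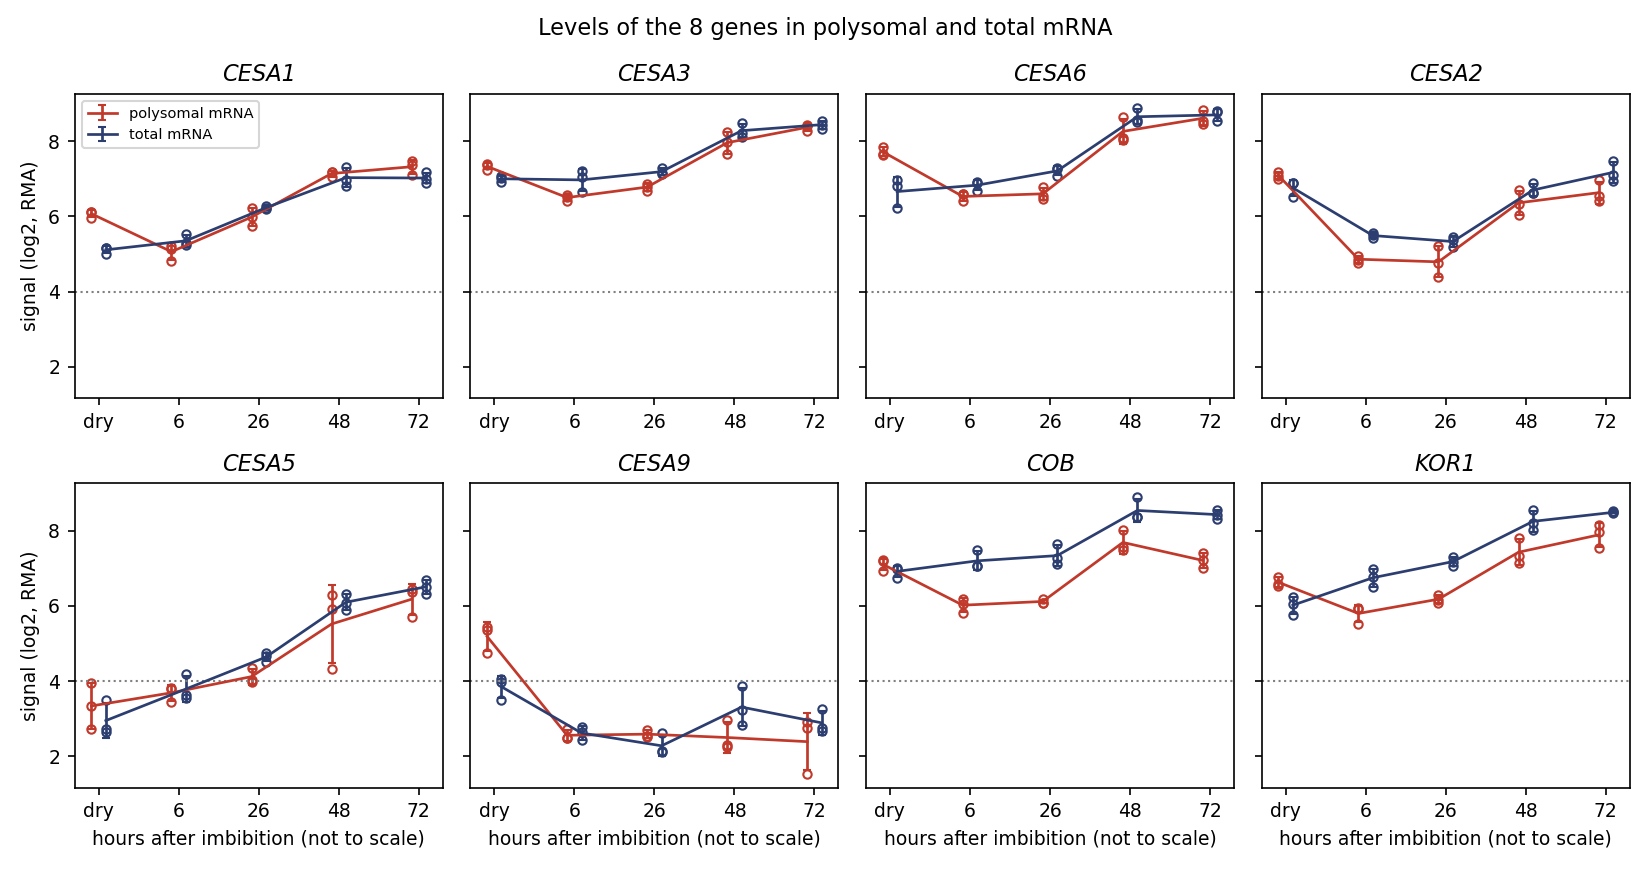
Signal (log2, RMA) of each gene against time in polysomal mRNA (red) and total mRNA (blue); circles are arrays, lines join the means of 3 replicates, bars are SD, and the dotted line is the noise level of 4. In polysomal mRNA CESA1, CESA3, CESA6, COB and KOR1 dip at 6 HAI, whereas CESA9 is above 4 only in dry seeds.

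The first interval, 6 HAI against dry seeds, asks what happens to these mRNAs when the seed takes up water. By the study's ribosome profiles, most ribosomes of dry seeds are not in polysomes, and the polysome peak is larger at 6 HAI. A fall in polysomal signal is therefore a lower level relative to the other polysomal mRNAs. The amount of each mRNA on polysomes was not measured by it. Among the core subunits, polysomal CESA1 fell. It measured 5.14, 4.81 and 5.22 in polysomal mRNA at 6 HAI, against 6.12, 6.12 and 5.96 in polysomal mRNA of dry seeds, a log2 difference of −1.01 (SE 0.15, adjusted p = 1.92e-06, 2.02-fold lower). All 3 arrays at 6 HAI lay below all 3 of dry seeds. In total mRNA CESA1 measured 5.54, 5.28 and 5.24 at 6 HAI, against 5.15, 5.17 and 5.0 in dry seeds, and this difference of 0.24 (SE 0.15) did not pass. Polysomal CESA3, the partner of CESA1 in every primary wall complex, measured 6.56, 6.51 and 6.41 at 6 HAI, against 7.23, 7.36 and 7.39 in dry seeds. The groups did not overlap, and the difference of −0.83 (SE 0.15, adjusted p = 2.47e-05) was below the size required. Total CESA3 measured 7.20, 6.65 and 7.05 at 6 HAI, against 7.02, 6.91 and 7.07 in dry seeds, with overlapping groups. The call of CESA1 is close to the limit: it stood at −0.99 without replicate 1 or without replicate 2 of polysomal dry seeds, and at −0.89 both without replicate 2 of polysomal 6 HAI and after another quantile normalization of the gene values.

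Of the CESA6-type subunits, polysomal CESA6 and CESA2 fell on imbibition and CESA5 did not, and CESA9 was lower at 6 HAI than in the dry seeds through which it entered the test. CESA6 measured 6.60, 6.60 and 6.40 in polysomal mRNA at 6 HAI, against 7.63, 7.85 and 7.66 in polysomal mRNA of dry seeds (log2 difference −1.18, SE 0.18, adjusted p = 2.58e-06). Its total mRNA was 6.90, 6.67 and 6.91 at 6 HAI, against 6.82, 6.21 and 6.96 in dry seeds, which overlapped. CESA2, by contrast, fell in both fractions. In polysomal mRNA CESA2 measured 4.85, 4.95 and 4.77 at 6 HAI, against 7.0, 7.08 and 7.19 in dry seeds (−2.23, SE 0.19, adjusted p = 1.97e-10, 4.70-fold lower). In total mRNA CESA2 measured 5.50, 5.57 and 5.42 at 6 HAI, against 6.51, 6.88 and 6.90 in dry seeds (−1.27, SE 0.19, adjusted p = 3.23e-06, 2.41-fold lower). Neither fraction of CESA2 overlapped between the time points. CESA9 measured 2.48, 2.48 and 2.73 in polysomal mRNA at 6 HAI, against 5.36, 4.76 and 5.45 in dry seeds (−2.62, SE 0.29). In total mRNA CESA9 measured 2.43, 2.66 and 2.78 at 6 HAI, against 4.05, 3.51 and 3.97 in dry seeds (−1.22, SE 0.29). All 6 HAI values of CESA9 lie below the noise level, so the size of its fall depends partly on background. CESA5 measured 3.44, 3.80 and 3.83 in polysomal mRNA at 6 HAI, against 2.72, 3.96 and 3.35 in dry seeds, below the noise level throughout. In total mRNA CESA5 was 4.18, 3.55 and 3.64 at 6 HAI, against 2.65, 3.49 and 2.72 in dry seeds, and the difference of 0.83 (SE 0.35, adjusted p = 0.0435) was short of the size required. It passed without replicate 2 of total dry seeds, the array that stood apart (1.10, adjusted p = 0.0166), and after the other quantile normalization (1.10, adjusted p = 0.0144).

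Of the accessory proteins, COB passed in polysomal mRNA and KOR1 did not. Polysomal COB fell to 6.18, 5.82 and 6.06 at 6 HAI, against 7.21, 7.19 and 6.94 in dry seeds (−1.10, SE 0.18, adjusted p = 7.59e-06, 2.14-fold lower). Polysomal KOR1 measured 5.94, 5.53 and 5.93 at 6 HAI, against 6.77, 6.52 and 6.59 in dry seeds, with no overlap but a difference of −0.83 (SE 0.18, adjusted p = 3.46e-04) that was too small to pass. Their total mRNA lay on the other side of 0. Total KOR1 measured 6.78, 6.50 and 6.97 at 6 HAI, against 6.23, 5.77 and 6.06 in dry seeds (0.73, SE 0.18, adjusted p = 0.00151, short of the size required). Total COB measured 7.49, 7.07 and 7.05 at 6 HAI, against 6.99, 7.02 and 6.74 in dry seeds (0.29, SE 0.18). All 3 arrays at 6 HAI lay above all 3 of dry seeds in total mRNA for both genes. Without CESA9, 4 of the other 7 genes fell and 0 rose in polysomal mRNA, where 15.1% of all genes tested fell, and their median difference was −1.01 against 0.08 over all genes tested. With CESA9 the count was 5 of 8. In total mRNA 1 of the 7 fell (CESA2) and 0 rose, where 9.93% of all genes tested fell, with a median of 0.24 against 0.10 over all genes tested, and with CESA9 the count was 2 of 8. Without replicate 2 of polysomal 6 HAI the polysomal count with CESA9 was 3 of 8, since COB then stood just under the size required at −1.0 and CESA1 at −0.89. Of the 4 that fell among the 7 genes other than CESA9, only CESA2 and CESA6 then kept the call. The mature seed marker mean was 11.08 to 11.24 in polysomal mRNA at 6 HAI and 11.47 to 11.55 in polysomal mRNA of dry seeds, and its part in these differences was not tested.

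Polysome occupancy is the polysomal minus the total signal on the log2 scale. It sets the change in the polysomes against that of the mRNA itself, each relative to the other genes of its fraction. Between dry seeds and 6 HAI the occupancy of 4 of the 7 genes other than CESA9 fell by more than 1, where 7.05% of all genes tested did, and none rose. The median change was −1.26 over the 7 genes and −0.04 over all genes tested, and all 7 changes were below 0. KOR1 fell by 1.56 (SE 0.26, adjusted p = 3.20e-04), COB by 1.38 (SE 0.25, adjusted p = 6.57e-04), CESA6 by 1.35 (SE 0.25, adjusted p = 8.29e-04) and CESA1 by 1.26 (SE 0.21, adjusted p = 3.47e-04). CESA9, above the noise level only in polysomal mRNA of dry seeds, differed by −1.40 (SE 0.41), which would make the count 5 of 8. KOR1 had a lower polysomal and a higher total signal at 6 HAI than in dry seeds, and it passed in occupancy although it passed in neither fraction alone. The other 3 genes did not reach the size required, with −0.96 for CESA2 (SE 0.27, adjusted p = 0.0161), −0.80 for CESA3 (SE 0.21, adjusted p = 0.00995) and −0.49 for CESA5 (SE 0.49, adjusted p = 0.530). CESA2 passed at −1.0 to −1.03 without any of 5 arrays: replicates 2 and 3 of total dry seeds, replicate 3 of total 6 HAI, replicate 1 of polysomal dry seeds and replicate 2 of polysomal 6 HAI. After the other quantile normalization CESA1 did not pass, at −0.88.

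Occupancy was also taken within each stage. In dry seeds all 8 genes had more signal in polysomal than in total mRNA, as 58.3% of all genes tested did, and the median over all genes tested was 0.09. The polysomal and total arrays overlapped for COB and CESA5, and CESA5 was below the noise level in both fractions. Of the 7 genes other than CESA9, whose median was 0.39, 1 passed, where 2.69% of all genes tested were higher in polysomal mRNA. This was CESA6 (1.05, SE 0.18, adjusted p = 2.32e-04), and CESA1 at 0.96 (SE 0.15, adjusted p = 9.59e-05) was just outside. CESA9 differed by 1.34 (SE 0.29), as a description of the group that let it into the test. The call of CESA6 was lost without replicate 2 of total dry seeds (0.83) or replicate 2 of polysomal dry seeds (0.98) and after the other quantile normalization (0.90), and CESA1 was gained without replicate 3 of polysomal dry seeds (1.02). At 6 HAI all 8 genes were on the other side of 0, where 55.9% of all genes tested were above 0, with a median of −0.38 against 0.06 over all genes tested. CESA5 (−0.10, SE 0.35) and CESA9 (−0.06, SE 0.29) were close to 0 at 6 HAI. Their polysomal and total arrays overlapped, with means below the noise level in both fractions, so their side of 0 is not informative. There COB passed at −1.19 (SE 0.18, adjusted p = 8.24e-05), where 2.71% of all genes tested were lower in polysomal mRNA. COB, which was 0.20 (SE 0.18) in dry seeds, kept a low occupancy to the end of the course, with −1.22 at 26 HAI (adjusted p = 8.57e-05), −0.85 after 48 h and −1.22 after 72 h (adjusted p = 7.29e-06). It was the only one of the 8 that passed at 26 HAI, where 2.79% of all genes tested were lower, and at 72 HAI, where 7.56% were. KOR1 stood next to it, with −0.95 at 6 HAI and −1.0 at 26 HAI, then −0.82 after 48 h and −0.61 after 72 h (SE 0.18 each), and its 3 polysomal arrays lay below its 3 total arrays at all 4 of these stages. KOR1 passed without replicate 2 of total 6 HAI (−1.08) and without replicate 1 or replicate 3 of polysomal 6 HAI (−1.02 each), and at 26 HAI without replicate 1 (−1.05) or replicate 3 (−1.01) of total mRNA or replicate 2 of polysomal mRNA (−1.06). At 48 HAI none of the 8 passed, where 10.1% of all genes tested differed either way. Without replicate 1 of polysomal 48 HAI, COB (−1.02) and KOR1 (−1.01) passed there, and CESA9, below the noise level, passed without replicate 1 of total 48 HAI (−1.05) or replicate 3 of polysomal 48 HAI (−1.04). CESA1 was the only one of the 8 with a value above 0 at 48 HAI (0.11) and at 72 HAI (0.30), although its polysomal and total arrays overlapped at both times.

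**Figure D2:**
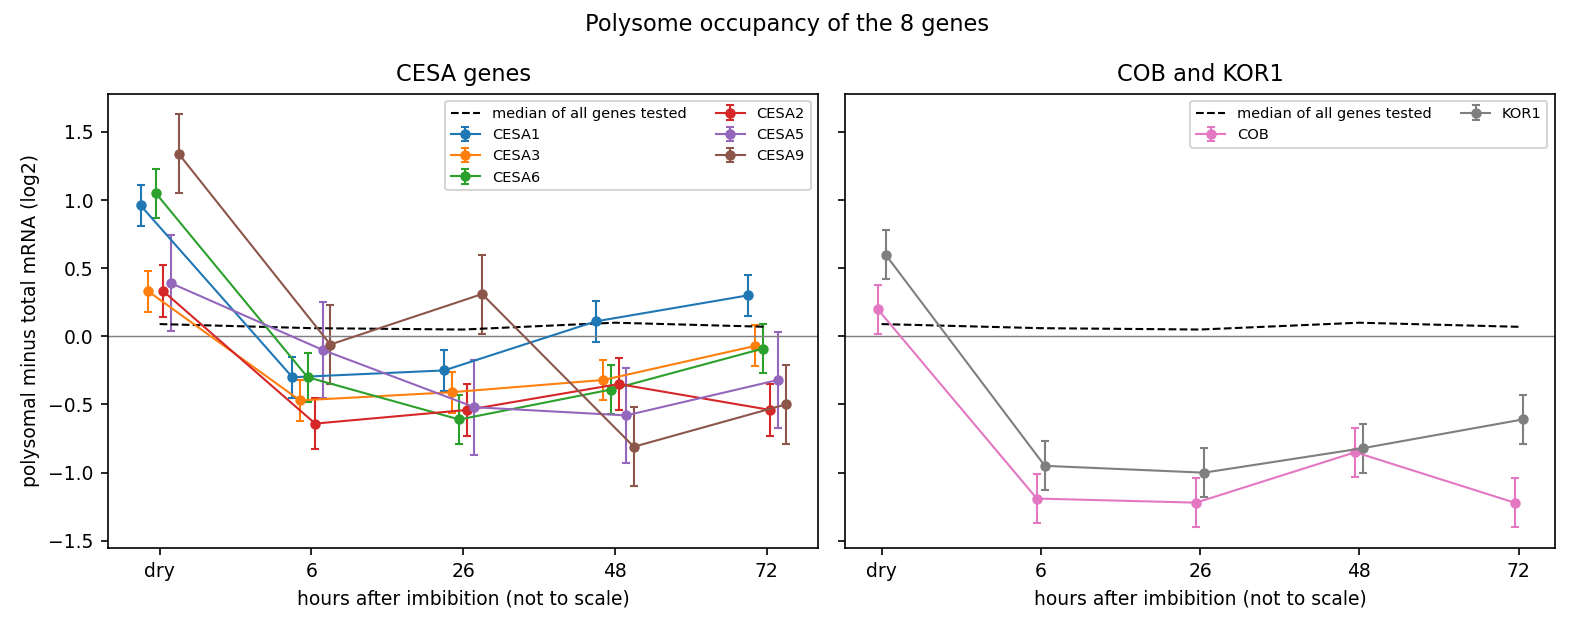
Polysome occupancy (polysomal minus total signal, log2) of the 6 CESA genes (left) and of COB and KOR1 (right) against time; points are limma estimates from 3 replicates of each fraction, bars are SE, and the dashed line is the median of all genes tested. All 8 genes are above 0 in dry seeds and below 0 at 6 HAI, and COB then stays between −1.22 and −0.85. CESA5 and CESA9, whose means at 6 HAI are below the noise level, lie close to 0 there.

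Between 6 and 26 HAI, up to the start of testa rupture, none of the 8 genes passed in either fraction, where 25.7% of all genes tested changed in total and 24.5% in polysomal mRNA. CESA1 had the largest difference of the 8 in both fractions. Polysomal CESA1 measured 5.75, 5.98 and 6.23 at 26 HAI, against 5.14, 4.81 and 5.22 at 6 HAI (0.93, SE 0.15, adjusted p = 9.77e-06). Total CESA1 measured 6.20, 6.22 and 6.28 at 26 HAI, against 5.54, 5.28 and 5.24 at 6 HAI (0.88, SE 0.15, adjusted p = 1.85e-05). Neither fraction overlapped, and polysomal CESA1 passed without replicate 1 of polysomal 26 HAI (1.05) or replicate 3 of polysomal 6 HAI (1.01). CESA5 was next in total mRNA, with 4.74, 4.52 and 4.66 at 26 HAI, against 4.18, 3.55 and 3.64 at 6 HAI (0.85, SE 0.35, adjusted p = 0.0399), and it passed without replicate 1 of total 6 HAI (1.05, adjusted p = 0.0266). The other 6 genes differed by −0.34 to 0.43 in total and by −0.07 to 0.38 in polysomal mRNA. The occupancy changes of the 8 had a median of 0.00 and none passed, where 0.0234% of all genes tested did.

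The interval in which the radicle emerges, 48 against 26 HAI, held the most rises among the 8 genes of the 4 intervals. In polysomal mRNA 7 of the 8 genes rose, where 14.0% of all genes tested did, and in total mRNA 7 of the 8 rose, where 15.3% did. The 7 in total mRNA include CESA9, which was below the noise level on all total mRNA arrays of both times. The median difference was 1.33 against −0.10 over all genes tested in polysomal and 1.15 against −0.18 in total mRNA. The genes outside were CESA9 in polysomal mRNA (−0.09) and CESA1 in total mRNA, which measured 7.30, 6.98 and 6.82 at 48 HAI, against 6.20, 6.22 and 6.28 at 26 HAI (0.80, SE 0.15, adjusted p = 5.71e-05). Polysomal CESA1 rose to 7.17, 7.19 and 7.05 at 48 HAI, against 5.75, 5.98 and 6.23 at 26 HAI (1.15, SE 0.15, adjusted p = 3.54e-07, 2.23-fold). Polysomal CESA3 rose to 8.24, 7.97 and 7.66 at 48 HAI, against 6.67, 6.78 and 6.87 at 26 HAI (1.18, SE 0.15, adjusted p = 1.96e-07). Both core subunits lay higher at 48 HAI on every array. Total CESA3 was 8.49, 8.12 and 8.23 at 48 HAI, against 7.12, 7.15 and 7.29 at 26 HAI (1.09, SE 0.15, adjusted p = 6.57e-07).

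CESA6 had the largest polysomal rise of the 8. It measured 8.65, 8.09 and 8.04 in polysomal mRNA at 48 HAI, against 6.47, 6.78 and 6.54 at 26 HAI (1.66, SE 0.18, adjusted p = 1.54e-08, 3.17-fold). In total mRNA CESA6 measured 8.88, 8.56 and 8.51 at 48 HAI, against 7.07, 7.27 and 7.28 at 26 HAI (1.44, SE 0.18, adjusted p = 1.51e-07). CESA2 also rose in both fractions, which brought its total mRNA back to the range of dry seeds. Polysomal CESA2 measured 6.69, 6.34 and 6.04 at 48 HAI, against 4.77, 5.21 and 4.39 at 26 HAI (1.57, SE 0.19, adjusted p = 1.35e-07). Total CESA2 measured 6.90, 6.61 and 6.61 at 48 HAI, against 5.18, 5.45 and 5.36 at 26 HAI (1.38, SE 0.19, adjusted p = 9.84e-07). CESA5 rose the most of the 8 in total mRNA, with 6.32, 6.09 and 5.90 at 48 HAI, against 4.74, 4.52 and 4.66 at 26 HAI (1.46, SE 0.35, adjusted p = 7.49e-04, 2.76-fold). Polysomal CESA5 measured 6.30, 5.92 and 4.33 at 48 HAI, against 4.36, 4.02 and 3.98 at 26 HAI (1.40, SE 0.35, adjusted p = 0.00116). Replicate 3 of polysomal 48 HAI overlapped the 26 HAI range, and the difference was 2.0 without it. CESA9 measured 2.84, 3.86 and 3.24 in total mRNA at 48 HAI, against 2.61, 2.11 and 2.13 at 26 HAI (1.03, SE 0.29, adjusted p = 0.00339), all below the noise level, so the size of this difference depends partly on background.

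COB and KOR1 rose in both fractions. Polysomal COB measured 8.03, 7.49 and 7.56 at 48 HAI, against 6.08, 6.09 and 6.18 at 26 HAI (1.58, SE 0.18, adjusted p = 3.74e-08, 2.99-fold). Total COB measured 8.90, 8.37 and 8.36 at 48 HAI, against 7.11, 7.27 and 7.64 at 26 HAI (1.20, SE 0.18, adjusted p = 2.46e-06). No group of COB overlapped between the times. Polysomal KOR1 measured 7.81, 7.34 and 7.15 at 48 HAI, against 6.09, 6.29 and 6.15 at 26 HAI (1.25, SE 0.18, adjusted p = 2.18e-06). Total KOR1 measured 8.55, 8.20 and 8.01 at 48 HAI, against 7.07, 7.30 and 7.16 at 26 HAI (1.07, SE 0.18, adjusted p = 1.80e-05). The occupancy changes of the 8 had a median of 0.19, with 0.07 over all genes tested, and none passed, where 4.40% of all genes tested did. Marker lists differed between these times as well: the green seedling mean was 9.71 to 10.03 in total mRNA at 48 HAI and 5.10 to 6.47 at 26 HAI, and the root hair list had 3 of 3 genes above 4 in total mRNA at 48 HAI and 0 of 3 at 26 HAI. The mature seed mean was 5.93 to 6.82 in total mRNA at 48 HAI and 10.37 to 10.69 at 26 HAI, and the part of these cell types in the rise was not tested. The 7 polysomal calls held without any single array, whereas in total mRNA the count was 5 without replicate 1 of total 48 HAI (CESA3 at 0.99, KOR1 at 0.93), and CESA9 fell below the limit without replicate 2 of total 48 HAI (0.76) or replicate 2 (0.94) or replicate 3 (0.95) of total 26 HAI. With the arrays set to equal medians, which shifts all genes, 4 of the total mRNA calls were left, as CESA3 (0.92), KOR1 (0.91) and CESA9 (0.86) dropped under the limit.

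**Figure D3:**
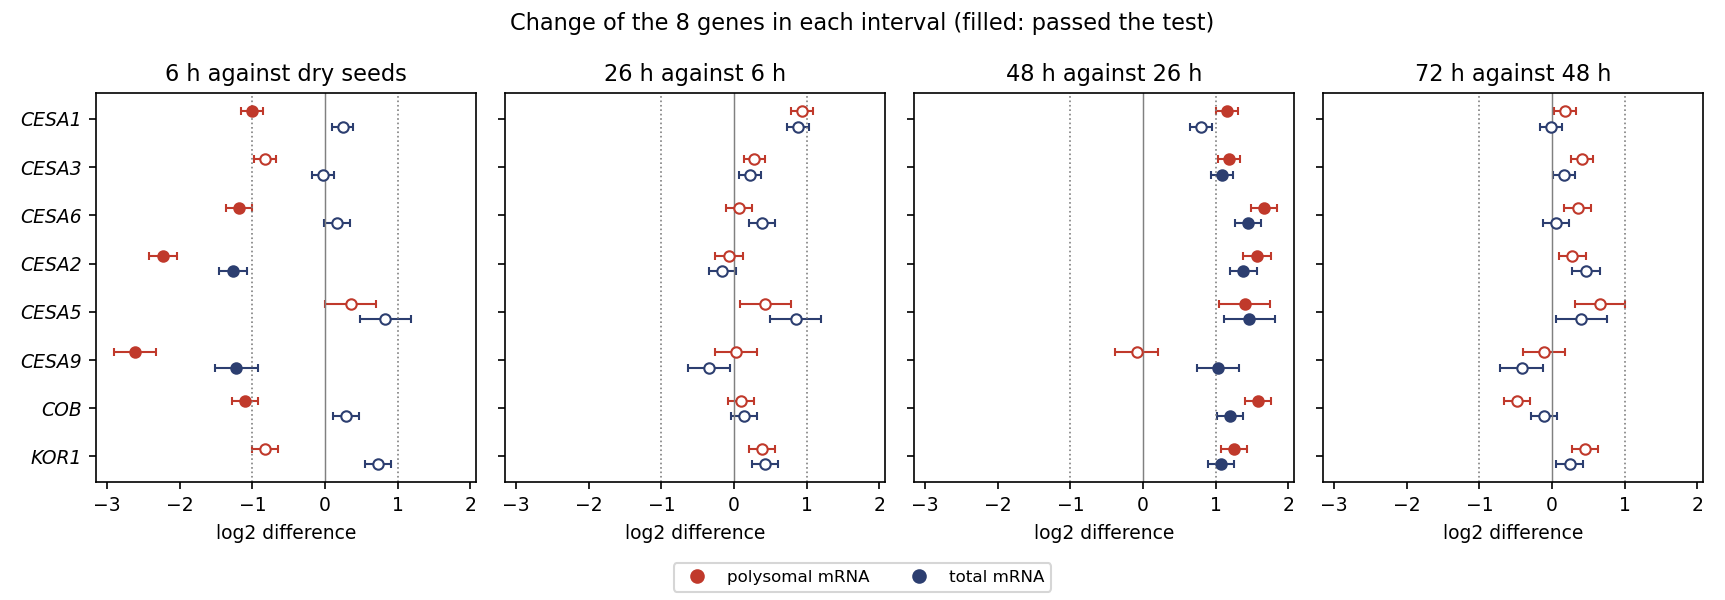
Log2 difference of each gene in each interval in polysomal (red, upper) and total mRNA (blue, lower); bars are SE, filled points passed the test (CESA9 entered it only through polysomal mRNA of dry seeds), and dotted lines mark a difference of 1 in size. At 6 HAI the polysomal points lie left of the total points for all 8 genes, whereas at 48 HAI both fractions lie right of 0 for all but polysomal CESA9.

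Between 48 and 72 HAI none of the 8 genes passed in either fraction, where 12.0% of all genes tested changed in total and 13.9% in polysomal mRNA. Polysomal COB measured 7.21, 7.40 and 7.02 at 72 HAI, against 8.03, 7.49 and 7.56 at 48 HAI (−0.48, SE 0.18, adjusted p = 0.0321), and no other gene of the 8 that was above the noise level had a polysomal difference below 0. Polysomal CESA3 measured 8.41, 8.26 and 8.44 at 72 HAI, against 8.24, 7.97 and 7.66 at 48 HAI (0.41, SE 0.15, adjusted p = 0.0276). Both differences kept the arrays of the times apart but were below the size required. Polysomal CESA5 measured 6.38, 6.46 and 5.71 at 72 HAI (0.66 against 48 HAI, SE 0.35) and passed without replicate 1 of polysomal 48 HAI (1.05), while without replicate 3 of polysomal 48 HAI the difference was 0.07. The median occupancy change of the 8 was 0.23, and none passed, where 0.205% of all genes tested did.

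Over the whole course, 72 HAI against dry seeds, 6 of the 8 genes rose in total mRNA (6 of the 7 other than CESA9), where 33.0% of all genes tested did. CESA5 had the largest difference, with 6.70, 6.32 and 6.51 at 72 HAI, against 2.65, 3.49 and 2.72 in dry seeds (3.55, SE 0.35, adjusted p = 5.54e-10), and its dry seed values are below the noise level. KOR1 rose by 2.47 (SE 0.18), CESA6 by 2.04 (SE 0.18), CESA1 by 1.91 (SE 0.15), COB by 1.51 (SE 0.18) and CESA3 by 1.44 (SE 0.15). CESA2 was 7.47, 6.93 and 7.11 at 72 HAI, against 6.51, 6.88 and 6.90 in dry seeds (0.41, SE 0.19, adjusted p = 0.0530). In polysomal mRNA 4 of the 7 genes other than CESA9 rose, where 30.2% of all genes tested did, and 0 fell, where 31.1% did. The risers were CESA5 (2.84, SE 0.35), KOR1 (1.26, SE 0.18), CESA1 (1.25, SE 0.15) and CESA3 (1.04, SE 0.15), and CESA9 differed by −2.80 (SE 0.29) from the dry seed group through which it was tested. Polysomal COB measured 7.21, 7.40 and 7.02 at 72 HAI, against 7.21, 7.19 and 6.94 in dry seeds (0.09, SE 0.18, adjusted p = 0.629), while its total mRNA was 8.56, 8.30 and 8.43 at 72 HAI, against 6.99, 7.02 and 6.74 in dry seeds. Polysomal CESA2 was lower at 72 HAI than in dry seeds on every array, at −0.46 (SE 0.19, adjusted p = 0.0318), short of the size required. CESA3 stood at 0.99 in polysomal mRNA without replicate 1 of polysomal dry seeds. No call of the 8 at 72 HAI changed without replicate 3 of polysomal 72 HAI. Total CESA9 differed by −0.96, a value given with no test. It was −1.14 without replicate 1 of total 72 HAI and −1.12 without replicate 2 of total dry seeds. With equal array medians CESA5 was the only one of the 4 polysomal risers left, as KOR1 (0.82), CESA1 (0.81) and CESA3 (0.60) dropped under the limit. In total mRNA CESA3 (0.91) and COB (0.98) were lost, and CESA9 differed by −1.49, again with no test.

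The courses can be set beside each other over the 10 group means, which share arrays, normalization and time, so that the correlations are descriptions only. The 28 pairs among the 8 genes had Pearson's r of −0.42 to 0.98, with a median of 0.73. Without CESA2 and CESA9 the 15 pairs had r of 0.69 to 0.98 with a median of 0.90, and CESA3 and CESA6 were the closest pair. For CESA1 the genes most alike among 17060 others were ATMG00500 (r = 0.98), DIT2.1 (AT5G64290, r = 0.98), a plastid dicarboxylate transporter, and KT2 (AT2G40540, r = 0.97), a potassium transporter. CESA6 ranked 228 and CESA3 ranked 346 in that order. For CESA5 they were AT1G53035, ACA11 (AT3G57330), a calcium pump, and AT3G60080, each with r = 0.99, and KOR1 ranked 756. For CESA9 they were AT3G04050, AT4G37250 and HSFA7A (AT3G51910), a heat shock factor, each with r = 0.96, and CESA2, the nearest of the other 7, ranked 2863 with r = 0.57. The only group mean of CESA9 above the noise level was polysomal mRNA of dry seeds (5.19). Its correlations therefore rest largely on that group. Over the 30 single arrays 1 of the 3 nearest genes was the same for CESA1 (ATMG00500), 1 for CESA5 (ACA11) and 0 for CESA9.

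The rest of the cellulose pathway was set beside the 8 genes as 38 genes in 4 lists, of which 22 were tested. The first list holds the other CESA genes. CESA4, CESA7 and CESA8, which form the secondary wall complex of xylem, and CESA10 did not pass the noise filter. The highest group mean among them was 4.17 ± 0.26 for CESA4 in total mRNA at 72 HAI, and its values in dry seeds were 2.28 to 2.66. Of the 4 xylem markers 1 was above 4 in total mRNA at 48 and at 72 HAI and 0 in dry seeds. The second list holds 18 genes of proteins known to work with the complex or close to it, of which 15 were tested. On imbibition 3 of the 15 fell in polysomal mRNA, where 15.1% of all genes tested did, and 0 rose, with a median of −0.63. This count is near the share over all genes. They were AT1G16860 (−2.48, SE 0.20, adjusted p = 7.37e-11), CTL1, a chitinase-like protein of the primary wall (−2.16, SE 0.16, adjusted p = 7.73e-12), and, named after its value was seen, AT3G57420 (−1.64, SE 0.26, adjusted p = 4.20e-06). CTL1 averaged 5.01 ± 0.23 in polysomal mRNA at 6 HAI and 7.17 ± 0.10 in dry seeds. Its occupancy fell by 1.35 (SE 0.22, adjusted p = 2.61e-04). AT2G41770 and KOB1, a protein needed for cellulose deposition in elongating cells, were named after their values were seen and also fell in occupancy, by 1.40 (SE 0.37, adjusted p = 0.0107) and 1.10 (SE 0.35, adjusted p = 0.0297). The median occupancy change of the 15 was −0.08, however, near the −0.04 of all genes tested. At radicle protrusion 5 of 14 rose in polysomal mRNA (14.0% of all genes tested) and 5 of 14 in total mRNA (15.3%) and 0 fell in either (14.6% and 14.9%), leaving out KOR2, which was above 4 on all 3 arrays only in the 48 HAI groups. The 14 include AT2G41990, which was above 4 on all 3 arrays only in groups of 48 and 72 HAI. CTL1 rose by 2.0 in polysomal mRNA (SE 0.16, adjusted p = 4.13e-11). KOR2, a relative of KOR1 known from trichomes and root hairs, averaged 4.78 ± 0.34 in total mRNA at 48 HAI and 2.30 ± 0.03, below the noise level, at 26 HAI, which is given with no test since it was tested only through 48 HAI.

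The third list holds 10 COBRA-like genes, the family of COB, of which 4 were tested. COBL9, which is needed for root hair growth, averaged 4.69 ± 0.28 in total mRNA at 48 HAI and 1.91 ± 0.39 at 26 HAI. COBL5 averaged 4.40 ± 0.37 in polysomal mRNA at 48 HAI and 2.21 ± 0.11 at 26 HAI. Each of these genes was above 4 on all 3 arrays in that 48 HAI group alone and so entered the test through it, and the values at 26 HAI are below the noise level, so no test is given. COBL2, known for cellulose of the seed coat, averaged 3.44 ± 0.25 in total mRNA at 26 HAI and 5.56 ± 0.14 at 6 HAI (−2.13, SE 0.25), and was below the noise level from 26 HAI on. It was above 4 on all 3 arrays only in the groups of dry seeds and 6 HAI, so no test is given for this difference. The occupancy of COBL2 fell by 1.95 on imbibition (SE 0.36, adjusted p = 6.55e-04), and so did that of COBL7, named after its value was seen, by 1.01 (SE 0.29, adjusted p = 0.0179). The fourth list holds 6 sucrose synthases, which supply UDP-glucose, and 3 were tested. SUS3 fell in polysomal mRNA to 4.73 ± 0.38 at 48 HAI, against 8.08 ± 0.01 at 26 HAI (−3.35, SE 0.15, adjusted p = 1.16e-15). SUS1 differed by 1.70 (SE 0.30) in polysomal mRNA over that interval, from a level of 3.64 ± 0.21 at 26 HAI that was below the noise level. It was above 4 on all 3 arrays only in polysomal mRNA at 48 and 72 HAI, so no test is given. SUS4 differed by 2.65 (SE 0.21), with 1.81 ± 0.21 at 26 HAI, but entered the test only through polysomal mRNA at 48 HAI. SUS4 was the only gene of the 4 lists whose occupancy rose on imbibition, by 1.41 (SE 0.29, adjusted p = 0.00205), but its levels in dry seeds and at 6 HAI were below the noise level. Over the 22 tested genes of the 4 lists, 5 fell and 0 rose in polysomal mRNA on imbibition (15.1% of all genes tested fell), and 3 fell and 0 rose in total mRNA (9.93% fell). In occupancy 5 of the 22 fell and 1 rose (7.05% and 2.17% of all genes tested), with a median of 0.00. At radicle protrusion, without KOR2, COBL5, COBL9 and SUS4, 6 of 18 rose and 1 fell in polysomal mRNA (14.0% and 14.6% of all genes tested), and 5 of 18 rose and 1 fell in total mRNA (15.3% and 14.9%). The 18 include SUS1 and AT2G41990, which were above 4 on all 3 arrays only in groups of 48 and 72 HAI. The gene that fell was SUS3 in both fractions.

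**Figure D4:**
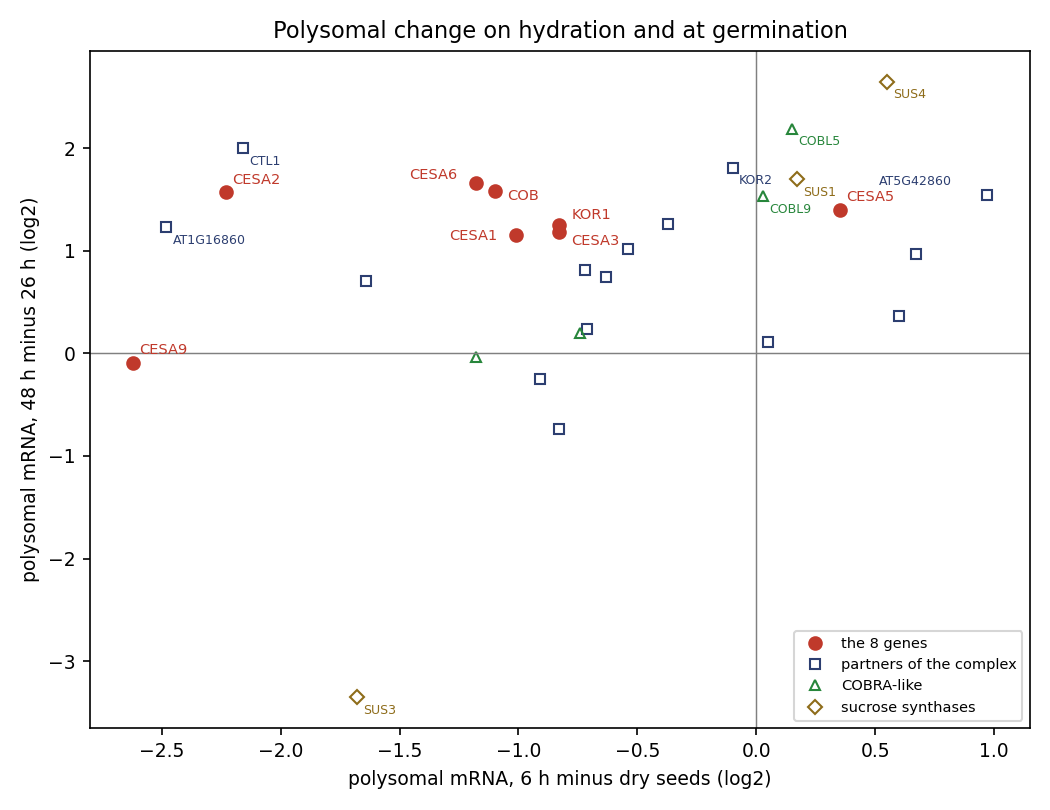
Log2 difference in polysomal mRNA at 48 against 26 HAI (vertical) and at 6 HAI against dry seeds (horizontal) for the 8 genes (filled circles) and the 22 tested genes of the other lists (open symbols). Of the 8 genes, 6 lie in the upper left field, lower at 6 HAI and higher at 48 HAI, whereas CESA5 is right of 0 and CESA9 is near 0 on the vertical axis.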

How the data were processed

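Polysomal mRNA, taken from the heavy part of a sucrose gradient, and total mRNA of 5 stages were measured on 30 arrays, 3 for each fraction and stage. Fraction, stage and replicate number came from the sample titles, since the molecule field reads total RNA for all arrays. The authors deposited log2 values, which they made by RMA with a Brainarray probe set definition, 1 signal per gene. The methods name a 3′ IVT kit and the labels whole-transcript kits, and which was used was not settled. Arrays have no sequencing depth, so precision rests on 3 replicates and on the signal over the noise level of 4. The p-values rest on 1 spread per gene, shared by all 10 groups of 3 samples and moderated over all genes tested.

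A model with 1 mean per group was fitted to all 30 arrays with limma 3.58.1 in R 4.3.3, with empirical Bayes moderation. Of 27827 genes, 17061 above 4 in all 3 replicates of a group were tested. In each of 19 comparisons, p-values were adjusted by Benjamini-Hochberg over all genes tested. Calls needed an adjusted p below 0.05 and a log2 difference above 1 in size. The change in polysome occupancy was tested as a contrast of 4 groups. The fit was tested on simulated data. Gene names came from a RefSeq table of the assembly TAIR10.1, and KOR1 is GH9A1 and CESA3 is CEV1 there. No sequences or coordinates were used here. Figures were drawn with matplotlib 3.10.9.

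The 8 genes and the pathway and marker lists were chosen with earlier results of these data known. Named from the lists are the other CESA genes and, per list, up to 3 called genes with the largest change, and for CESA1, CESA5 and CESA9 the 3 genes with the highest correlation over the 10 group means. The alternatives were no noise filter, a level above 5, equal array medians, a further quantile normalization, the replicate number as a block, an intensity trend with robust moderation, a fit of the compared groups alone, and leaving out each array.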

Additional observations from a re-analysis of the deposited data

Results flagged for a closer look

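For 4 of the 8 genes the change at 6 HAI against dry seeds differed between polysomal and total mRNA by the test of the difference itself, the interaction of fraction and time in limma. This is the same contrast as the change in polysome occupancy. The difference, polysomal minus total change on the log2 scale, was −1.26 for CESA1 (adjusted p = 3.47e-04), −1.35 for CESA6 (adjusted p = 8.29e-04), −1.38 for COB (adjusted p = 6.57e-04) and −1.56 for KOR1 (adjusted p = 3.20e-04). CESA6, COB and KOR1 kept this call under every alternative tried and without any single array, whereas CESA1 lost it after a further quantile normalization (−0.88). For CESA9 the difference was −1.40, but that gene was tested only because it was above the noise level in polysomal mRNA of dry seeds, a group of this contrast, so it is given as a value with no test.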

How the results depend on the processing

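No result of the 8 genes changed its sign where it was called, under any alternative. Of the 152 differences (8 genes in 19 comparisons), all 152 kept their side of the threshold without the noise filter, with an intensity trend and robust moderation, and in a fit of the compared groups alone. With the replicate number as a replicate block all 152 kept their side as well. The counts of calls, which here and below include CESA9, were those of the fit without it, for example 5 in polysomal mRNA at 6 HAI against dry seeds. CESA9 entered the test only through polysomal mRNA of dry seeds. Its calls in comparisons with dry seeds, whether kept, lost or gained, are therefore counted here but carry no weight as tests. The block gives each replicate number the same effect at all stages. It does not pair the polysomal and total arrays within a stage, and such a pairing was not fitted. The labels do not say that a number marks a shared extract, and of 15 pairs of polysomal and total arrays with the same number 2 had residual correlations above 0.1 (0.00 to 0.20), although 12 of the 15 correlated best with their own number.

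A level above 5 removed CESA9 from the test, so that 1 gene was called in total mRNA at 6 HAI against dry seeds (2 in the main setting) and 1 in polysomal against total mRNA of dry seeds (2 in the main setting), and the other 133 differences kept their side. With equal array medians 8 calls were lost and 1 was gained, and 4 genes were called in total mRNA at 48 against 26 HAI (7 in the main setting) and 2 in polysomal mRNA at 72 HAI against dry seeds (5 in the main setting). After a further quantile normalization 5 calls were lost and 4 were gained. The losses were polysomal CESA1 at 6 HAI against dry seeds (−0.89, which left 4 genes called), total CESA9 at 48 against 26 HAI (0.66, which left 6), CESA6 in polysomal against total mRNA of dry seeds (0.90), and CESA1 (−0.88) and CESA9 (−1.16) in occupancy at 6 HAI against dry seeds. Under it 3 genes were called for occupancy at 6 HAI against dry seeds (5), 1 for polysomal against total mRNA in dry seeds (2) and 2 at 26 HAI (1). The gains under it were CESA5 in total mRNA at 6 HAI against dry seeds (1.1), polysomal CESA6 and total CESA9 at 72 HAI against dry seeds (1.08 and −1.48) and KOR1 in occupancy at 26 HAI (−1.06).

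Equal array medians moved the median of all genes by −0.53 in total and −0.44 in polysomal mRNA at 72 HAI against dry seeds, by −0.31 and −0.27 at 26 against 6 HAI, by −0.17 in total mRNA at 48 against 26 HAI, and by 0.11 and 0.12 for polysomal against total mRNA at 48 and 72 HAI. The quantile normalization moved it by −0.12 in total mRNA at 6 HAI against dry seeds, by 0.10 in occupancy at 6 HAI against dry seeds and by −0.15 for polysomal against total mRNA of dry seeds. Equal medians shift all genes of a comparison alike, so they could not change where the 8 genes stood relative to all genes. After the quantile normalization the median of the 8 genes minus that of all genes was 1.38 in total mRNA at 48 against 26 HAI. It was −1.05 in polysomal mRNA at 6 HAI against dry seeds. Equal medians also moved the split of calls over all genes toward falls at the later times and toward rises in polysomal against total mRNA: 4203 up and 6527 down in total mRNA at 72 HAI against dry seeds (5631 and 4617 in the main setting), 4140 and 6926 in polysomal mRNA (5146 and 5298), 1860 and 3139 in total mRNA at 26 against 6 HAI (2644 and 1734), 1828 and 2797 in polysomal mRNA (2514 and 1667), 2246 and 3400 in total mRNA at 48 against 26 HAI (2608 and 2548), and, for polysomal against total mRNA, 985 and 886 at 48 HAI (632 and 1092) and 1137 and 1046 at 72 HAI (727 and 1289).

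Leaving out each array in turn lost a call in 14 refits of a difference, gained one in 23 and left 1067 as they were. The count of genes called ranged over 0 to 1 at 26 against 6 HAI in total and likewise in polysomal mRNA, 3 to 5 in polysomal mRNA at 6 HAI against dry seeds, 0 to 1 in polysomal mRNA at 72 against 48 HAI, and, for polysomal against total mRNA, 1 to 3 in dry seeds, 1 to 2 at 6 HAI, 1 to 2 at 26 HAI and 0 to 2 at 48 HAI. For 6 HAI against dry seeds it was 4 to 6 in occupancy change and 2 to 3 in total mRNA. In total mRNA at 48 against 26 HAI the count was 5 to 7. At 72 HAI against dry seeds it was 6 to 7 in total and 4 to 5 in polysomal mRNA. The cause of these shifts was not tested.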
